A study of Mus musculus with 12 samples.

Results

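Hsd11b1, Agt and 8 further genes of the glucocorticoid pathway were followed in C57MG cells, a mouse mammary epithelial line, that had been given R-spondin2 (Rspo2), Wnt3a or both. The genes were Hsd11b1 and H6pd (hormone activation), Nr3c1 (the receptor), and Agt, Tsc22d3, Fkbp5, Per1, Dusp1, Sgk1 and Zbtb16 (genes known to answer to the hormone), and every non-control spot carrying one of these symbols (for Sgk1 also the older Sgk) was taken. Of the 10 genes 9 had a probe, and no spot carried the name Zbtb16. The array named 21307 distinct gene symbols, and the 9 genes had 18 probes among the 41174 distinct probes of the array, and 17 of these were detected, all of them well above background on all 12 arrays; the second Sgk1 probe was above background on 0 arrays and is given no change. Hsd11b1 and Agt were chosen by the size of their interaction between Rspo2 and Wnt3a on these very arrays, so their values are a description and carry no test, whereas the 7 other measured genes were tested.

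The 4 treatments, each of 24 h in DMEM with nothing else added, were bovine serum albumin (BSA, the protein carrier), human Rspo2, mouse Wnt3a, and Rspo2 with Wnt3a, with the recombinant proteins at 100 ng/ml each. Each group had 3 monolayers, described as biological triplicates, and the RNA of each was hybridised to 1 single-colour array. All groups were of 1 cell line, the labels name no added steroid, and a change in bulk RNA cannot tell fewer cells of a type from less RNA per cell. Levels are log2 intensities relative to the 75th percentile of the same array, so a level can be compared between groups for a given probe but not between probes.

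Glucocorticoids circulate partly as an inert keto form. The enzyme made from Hsd11b1 reduces that form to active hormone inside the endoplasmic reticulum, using NADPH that H6pd regenerates there, and the hormone then binds the receptor Nr3c1, which moves to the nucleus and raises or lowers the transcription of its targets. In the mammary gland glucocorticoids act with prolactin on milk protein genes. R-spondins are secreted proteins that keep Wnt receptors at the cell surface and so prolong the signal that Wnt proteins send through β-catenin.

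The arrays were alike in quality. Between 51.3% and 64.2% of probes were well above background on each array, the 75th percentile lay between 773.9 and 1146 intensity units, and arrays of the same group correlated at 0.989 to 0.996. Slide and treatment were partly confounded: BSA replicates 1 to 3 shared slide 1 with Rspo2 replicate 1, Wnt3a replicates 1 and 2 shared slide 2 with the other Rspo2 replicates, and Wnt3a replicate 3 shared slide 3 with all arrays of the combination. BSA was thus never on a slide with Wnt3a or with the combination, so those comparisons rest on arrays of different slides. For the measured genes they are also given from a fit that holds slide as a term.

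Hsd11b1 was highest after Rspo2 and lowest after Rspo2 plus Wnt3a. Before scaling between arrays its intensity was 543, 686 and 651 units on the BSA arrays, 956, 879 and 798 after Rspo2, 392, 404 and 341 after Wnt3a, and 183, 141 and 155 after both. The 4 groups did not overlap, and the order was Rspo2, BSA, Wnt3a, both. On the scaled log2 axis the group means were -0.76 ± 0.04 for BSA, -0.03 ± 0.06 for Rspo2, -1.12 ± 0.16 for Wnt3a and -2.63 ± 0.23 for both (SD, n = 3). Rspo2 alone was thus 0.73 above BSA (SE 0.12) and Wnt3a alone 0.36 below it (log2 change -0.36, SE 0.12). Both together lay 3.66-fold below BSA (log2 change -1.87, 95% interval -2.13 to -1.61).

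The same Rspo2 that went with more Hsd11b1 mRNA by itself went with less of it when Wnt3a was present. The combination was 2.85-fold below Wnt3a alone (log2 change -1.51) and 6.08-fold below Rspo2 alone (log2 change -2.60). The interaction, which is the joint change after the separate changes with Rspo2 and with Wnt3a are subtracted, was -2.24 (SE 0.17), the 10th lowest of 22751 detected probes. That position is what led to the choice of the gene. Within single slides the differences had the same directions: 0.67 for Rspo2 replicate 1 over the 3 BSA arrays on slide 1, -1.07 for Wnt3a against Rspo2 on slide 2, and -1.39 for the combination against Wnt3a replicate 3 on slide 3. With slide as a term the changes with Rspo2, Wnt3a and both were 0.67, -0.41 and -1.80 and the interaction was -2.06.

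Agt, which encodes angiotensinogen, the precursor of the angiotensin peptides and a classical glucocorticoid target of liver and fat, had the same order of groups. Its intensity was 196, 249 and 292 units on the BSA arrays, 345, 277 and 279 after Rspo2, 113, 114 and 107 after Wnt3a, and 61.1, 43.6 and 48.6 after both. These unscaled values of BSA and Rspo2 overlapped, whereas after scaling no groups did. The scaled means were -2.12 ± 0.21 for BSA, -1.58 ± 0.08 for Rspo2, -2.89 ± 0.11 for Wnt3a and -4.28 ± 0.29 for both (SD, n = 3). Rspo2 alone lay 0.54 above BSA (SE 0.15) and Wnt3a alone 1.70-fold below it (log2 change -0.77).

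With both proteins Agt was 4.47-fold below BSA (log2 change -2.16, 95% interval -2.48 to -1.84), 2.63-fold below Wnt3a (log2 change -1.39) and 6.51-fold below Rspo2 (log2 change -2.70). Its interaction was -1.94 (SE 0.21), the 15th lowest of 22751. Combination replicate 1 was the least reduced array for both genes. The differences within slides were 0.56 on slide 1, -1.30 on slide 2 and -1.37 on slide 3, and with slide as a term the change with both against BSA was -2.11 and the interaction -1.93. Since Agt was dim in the combination, the background correction mattered there: with normexp and an offset of 50 the Agt change against BSA was -1.53 and that against Wnt3a -0.85, while Hsd11b1 gave -1.53 and -1.27.

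**Figure D1:**
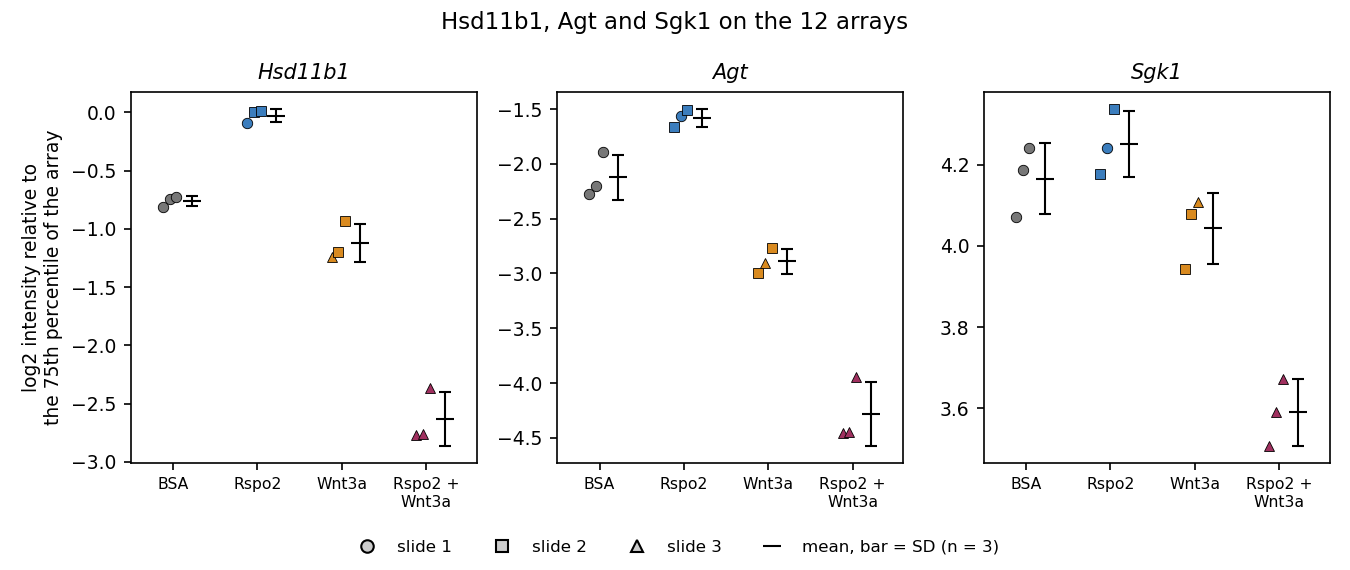
Levels of Hsd11b1, Agt and Sgk1 on each of the 12 arrays (vertical axis, log2 intensity over that array's 75th percentile; each panel has its own scale; horizontal axis, treatment group; symbols give the slide; bars give mean and SD, n = 3). For Hsd11b1 and Agt the groups stand apart in the order Rspo2, BSA, Wnt3a, both, with group means of -2.63 and -4.28 after both, and for Sgk1 the 3 arrays of the combination, at 3.51 to 3.67, lie below all others.

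The bases just before a RefSeq start of these genes are given for reference, since Hsd11b1 and Agt shared a pattern and 1 of the 6 Sgk1 windows holds the receptor's own full motif. From the RefSeq table (GRCm38.p6) 16 such windows of 250 bases were taken for 8 of the 10 genes, and none for Nr3c1 or Zbtb16. Hsd11b1 lies on the minus strand of chromosome 1 from 193221640 to 193264045, Agt on the minus strand of chromosome 8 from 124556587 to 124569706, and Sgk1 on the plus strand of chromosome 10 from 21882184 to 21999903. The windows are upstream sequence at chr1:193242361-193242610, chr8:124569707-124569956 and, for the fifth of the 6 Sgk1 starts in the table, chr10:21993640-21993889. Each is written 5′ to 3′ on the strand of its gene, with matches to the searched motifs in capitals.
Hsd11b1: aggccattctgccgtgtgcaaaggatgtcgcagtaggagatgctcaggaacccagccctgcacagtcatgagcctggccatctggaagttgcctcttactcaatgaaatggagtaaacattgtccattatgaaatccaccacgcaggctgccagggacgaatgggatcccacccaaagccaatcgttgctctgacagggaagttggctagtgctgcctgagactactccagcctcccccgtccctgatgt
Agt: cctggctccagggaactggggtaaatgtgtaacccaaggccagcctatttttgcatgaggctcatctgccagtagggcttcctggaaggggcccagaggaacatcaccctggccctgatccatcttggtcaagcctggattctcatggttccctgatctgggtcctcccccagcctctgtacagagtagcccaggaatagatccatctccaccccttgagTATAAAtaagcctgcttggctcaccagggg
Sgk1: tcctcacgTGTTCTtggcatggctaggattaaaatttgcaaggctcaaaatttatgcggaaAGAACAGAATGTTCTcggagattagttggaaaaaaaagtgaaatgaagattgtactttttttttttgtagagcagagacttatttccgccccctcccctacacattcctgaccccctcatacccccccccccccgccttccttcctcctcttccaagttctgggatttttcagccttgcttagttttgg

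Searched on both strands were the full receptor element, AGAACA and TGTTCT with 3 bases between them, its half-site TGTTCT, which the full element contains, the Tcf/Lef core CTTTGA, the C/EBP motif TTGCNNAA and TATAAA. Of 32851 windows in the table, 3 held the full element (0.00913%), 16.1% the half-site, 13.8% the Tcf/Lef core, 9.56% the C/EBP motif and 12.4% TATAAA. The Sgk1 window above is 1 of those 3, with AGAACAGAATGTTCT beginning 189 bases before the start and another half-site further upstream. It was picked for that element, which the other Sgk1 windows lacked. Among windows not printed, the Tcf/Lef core was in Sgk1 windows 1 and 2 and Tsc22d3 window 3. The half-site was in Sgk1 windows 1 and 4, Tsc22d3 window 2 and the H6pd window. The C/EBP motif was in Sgk1 window 2 and Per1 window 1, and TATAAA in Sgk1 windows 4 and 6. None of the 5 motifs was in the Hsd11b1 window, and the Agt window held only TATAAA, beginning 30 bases before the start. Such matches describe the letters of these windows and say nothing of factor binding.

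H6pd, which supplies the NADPH for the reaction of Hsd11b1, differed much less between groups. It had scaled levels of 0.80 to 1.08 on the BSA arrays, 0.70 to 1.05 after Rspo2, 0.44 to 1.16 after Wnt3a and 0.33 to 0.67 after both. The combination lay below BSA (log2 change -0.49, SE 0.17, limma adjusted p = 0.0459), without reaching 2-fold, and overlapped Wnt3a. The slide moved with this difference: with slide as a term it was -0.17 (adjusted p = 0.83), and the single Wnt3a array that shared slide 3 with the combination was the lowest of its group. The second H6pd probe gave -0.27 (limma adjusted p = 0.276) for the same comparison.

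Nr3c1, the receptor, was measured by 4 probes, and none separated the combination from BSA. The brightest ranged from 2.08 to 2.40 on the BSA arrays and from 2.17 to 2.26 after both (log2 change -0.01, 95% interval -0.26 to 0.24, limma adjusted p = 0.958). The other probes gave -0.03, -0.05 and -0.06, so that on the widest of the 4 intervals, -0.37 to 0.28, a change of 2-fold lay outside in this fit without slide. With slide as a term the brightest probe gave 0.17 (SE 0.25, limma adjusted p = 0.808). The others then gave -0.26, -0.41 and -0.44 (SE 0.20, 0.29 and 0.20, limma adjusted p = 0.602, 0.552 and 0.352). The sign in that fit thus depended on the probe, and the bound on a 2-fold change does not carry over to it. In other comparisons the probes differed in sign. For Wnt3a against BSA they gave 0.18 for the brightest, -0.16 and -0.35 for the next and -0.39 for the dimmest, the last at a limma adjusted p of 0.0192. For the combination against Wnt3a they gave -0.19, 0.13, 0.30 and 0.33 in the same order, none at an adjusted p under 0.05. The direction of Nr3c1 in those comparisons therefore depends on the probe.

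Among the 5 tested target genes, the largest difference between the combination and BSA was that of Sgk1, a serum- and glucocorticoid-induced kinase that acts on ion channels and cell survival. Its scaled level was 4.19, 4.24 and 4.07 on the BSA arrays, 4.24, 4.34 and 4.18 after Rspo2, 3.94, 4.08 and 4.11 after Wnt3a, and 3.59, 3.67 and 3.51 after both. The combination lay below every other array, while the other 3 groups overlapped their neighbours. Against BSA the difference was -0.58 (SE 0.08, limma adjusted p = 0.000457), or 1.49-fold, against Wnt3a -0.45 (limma adjusted p = 0.0108) and against Rspo2 -0.66 (limma adjusted p = 0.000331). The interaction was -0.54 (SE 0.12, limma adjusted p = 0.0237). Fitted with a slide term, the same 4 values were -0.69, -0.52, -0.76 and -0.59, with limma adjusted p-values of 0.137, 0.0986, 0.0392 and 0.176. On slide 3 alone the combination differed from Wnt3a replicate 3 by -0.52. The interaction passed the threshold in 8 of the 12 fits that left out 1 array each, but not without BSA replicate 3, Rspo2 replicate 2, Wnt3a replicate 2 or combination replicate 3.

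Tsc22d3 (GILZ, a leucine zipper protein that curbs inflammatory transcription) and Fkbp5 (a cochaperone that lowers the receptor's affinity for hormone) lay on the other side of BSA. By its brightest probe Tsc22d3 ran from 1.05 to 1.19 on the BSA arrays, 1.42 to 1.48 after Rspo2, 1.28 to 1.44 after Wnt3a and 1.33 to 1.66 after both. On that probe BSA was the lowest group, without overlap. On the other probes Wnt3a overlapped BSA, and on the second Rspo2 did too. The combination was 0.37 above BSA (SE 0.09, limma adjusted p = 0.00921) and Rspo2 0.30 above it (limma adjusted p = 0.0491) on the brightest probe. The other probes gave 0.26 and 0.29 for the combination (limma adjusted p = 0.0472 and 0.0201). For Rspo2 they gave 0.15 and 0.13 (limma adjusted p = 0.274 and 0.299). With slide as a term the brightest probe gave 0.21 for the combination and 0.27 for Rspo2 (adjusted p = 0.721 and 0.342). Fkbp5 was 0.27 above BSA with both proteins (SE 0.08, limma adjusted p = 0.0186) and 0.26 above Rspo2 (limma adjusted p = 0.0409). The slide term left 0.30 and 0.26 (adjusted p = 0.516 and 0.373). Its probes disagreed, the second giving 0.32 and the dimmest -0.26 for the combination against BSA, neither at an adjusted p under 0.05 (0.0789 and 0.362). The direction of Fkbp5 therefore depends on the probe.

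Dusp1, a phosphatase that switches off MAP kinases, was set apart by Rspo2 alone. Its levels were 0.99 to 1.09 on the BSA arrays, 1.27 to 1.36 after Rspo2, 0.91 to 1.07 after Wnt3a and 0.83 to 1.00 after both, so that Rspo2 lay above the other 3 groups, which overlapped. Rspo2 was 0.28 above BSA (SE 0.08, limma adjusted p = 0.0331), and the combination was 0.39 below Rspo2 (log2 change -0.39, limma adjusted p = 0.00528) and did not differ detectably from BSA (-0.11, 95% interval -0.27 to 0.06). In the fit with slide the first 2 of these were 0.22 and -0.47 (adjusted p = 0.343 and 0.127) and the last -0.24.

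Per1, a repressor of the circadian clock whose promoter answers to glucocorticoids, ranged from -0.88 to -0.44 on the BSA arrays, -0.61 to -0.26 after Rspo2, -1.29 to -0.68 after Wnt3a and -1.20 to -0.96 after both. The combination lay below BSA (log2 change -0.50, SE 0.18, limma adjusted p = 0.0454) and below Rspo2 (log2 change -0.63, limma adjusted p = 0.0366). With slide as a term these were -0.11 and -0.10 (adjusted p = 0.905 and 0.865), and on slide 3 the combination was 0.19 above the Wnt3a array. The lowest Per1 array of all was Wnt3a replicate 3, on slide 3.

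**Figure D2:**
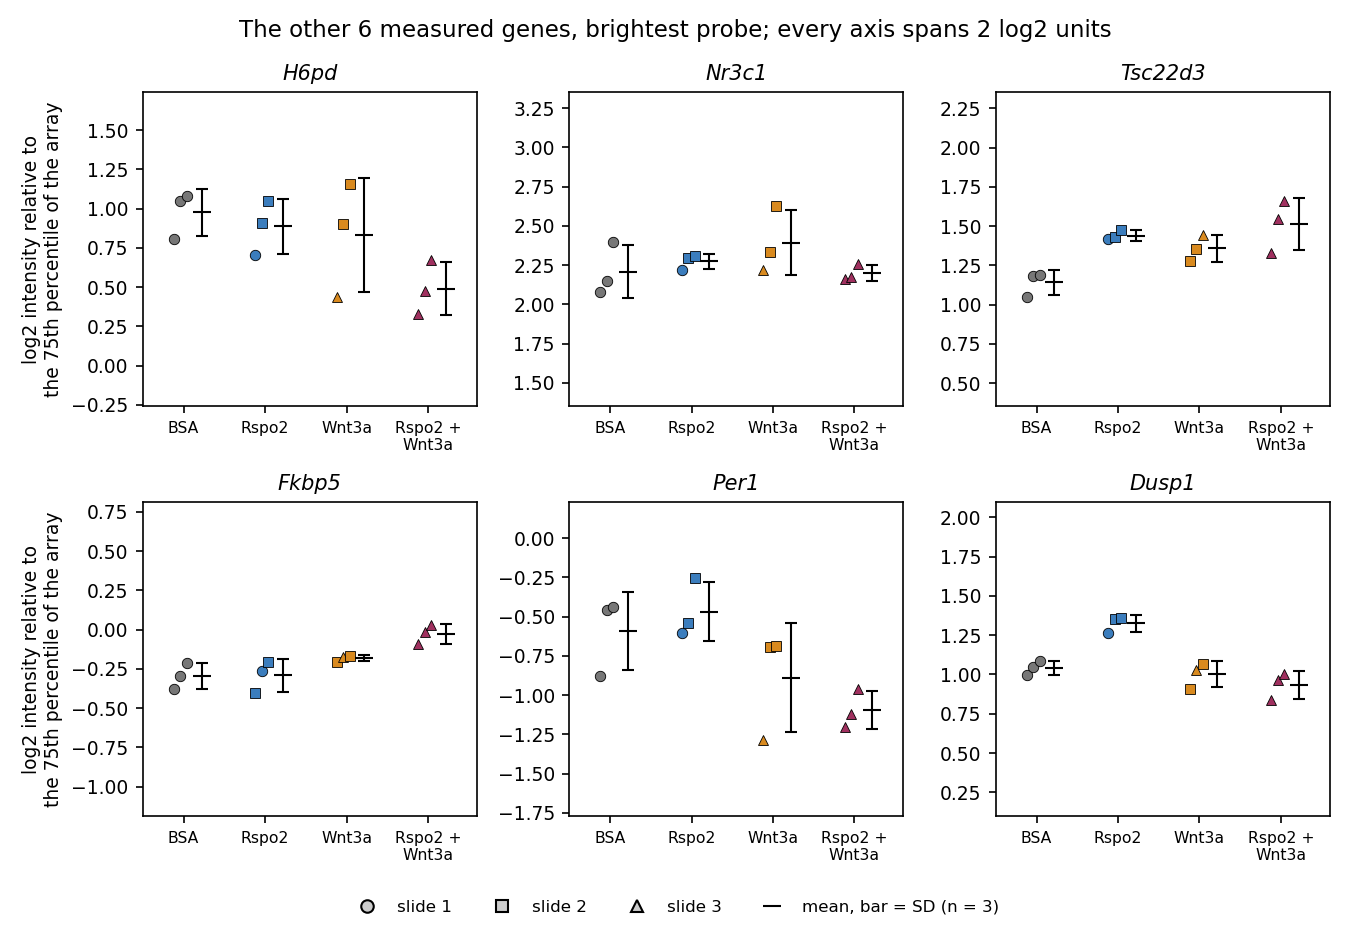
Levels of H6pd, Nr3c1, Tsc22d3, Fkbp5, Per1 and Dusp1 on the 12 arrays, brightest probe of each (vertical axis, log2 intensity over that array's 75th percentile, spanning 2 log2 units in every panel; horizontal axis, treatment group; symbols give the slide; bars give mean and SD, n = 3). Group means differ by far less than for Hsd11b1 and Agt: the largest distance between the combination and BSA is that of Per1, at -0.50, and for H6pd and Per1 the Wnt3a array of slide 3 lies with the combination.

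When a call required both a limma adjusted p under 0.05 and a 2-fold difference, 0 of the 7 tested genes were called in any comparison. The share of all 22751 probes called by that rule was 0.721% for Rspo2 against BSA, 2.52% for Wnt3a against BSA, 5.08% for both against BSA, 0.747% for both against Wnt3a, 2.67% for both against Rspo2 and 1.93% for the interaction, so 0 of 7 lies near what the whole array gives. On the adjusted p alone, 2 of 7 passed for Rspo2 against BSA (16.8% of all probes), 0 for Wnt3a against BSA (31.5%), 5 for both against BSA (39.2%), 1 for both against Wnt3a (4.27%), 4 for both against Rspo2 (16.5%) and 1 for the interaction (8.9%). At an unadjusted limma p under 0.05 the counts were 2, 1, 5, 1, 5 and 2 of 7 in the same order, beside 35%, 43%, 47.9%, 18.4%, 30.8% and 29.3% of all probes. By the methods' t-test with the same 2-fold requirement, 0 were called in each of the 5 comparisons it can make. Of the 5 genes that passed for both against BSA, 2 were higher, Tsc22d3 and Fkbp5 (21.9% of all probes), and 3 lower, Sgk1, H6pd and Per1 (17.3%), and the median over the 7 was -0.11, beside 0.04 over all probes.

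In the fit without slide the intervals bound how large a change could have been missed, leaving aside differences between slides. Over the brightest probes of the 7 genes and the 6 comparisons, every 95% interval of that fit lay within 1 log2 unit of 0 except that of Per1 for both against Rspo2 (-1.02 to -0.23). The bound does not carry over to the fit with slide as a term. There Sgk1, for example, was -0.69 for both against BSA with an SE of 0.20, beside 0.08 without slide. Beside the interactions of -2.24 for Hsd11b1 and -1.94 for Agt, those of the tested genes were -0.54 for Sgk1, -0.35 for Dusp1 (limma adjusted p = 0.0645), -0.33 for Per1, -0.26 for Nr3c1, -0.25 for H6pd, -0.15 for Tsc22d3 and 0.15 for Fkbp5, by the brightest probe of each. Dimmer probes turned the direction for Nr3c1 (0.22, 0.40 and 0.40) and H6pd (0.53, 95% interval -0.05 to 1.11), and the third Fkbp5 probe gave 0.46 (95% interval -0.21 to 1.13), so for H6pd and Fkbp5 an interaction above 1 log2 unit lay within the interval of a dimmer probe.

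**Figure D3:**
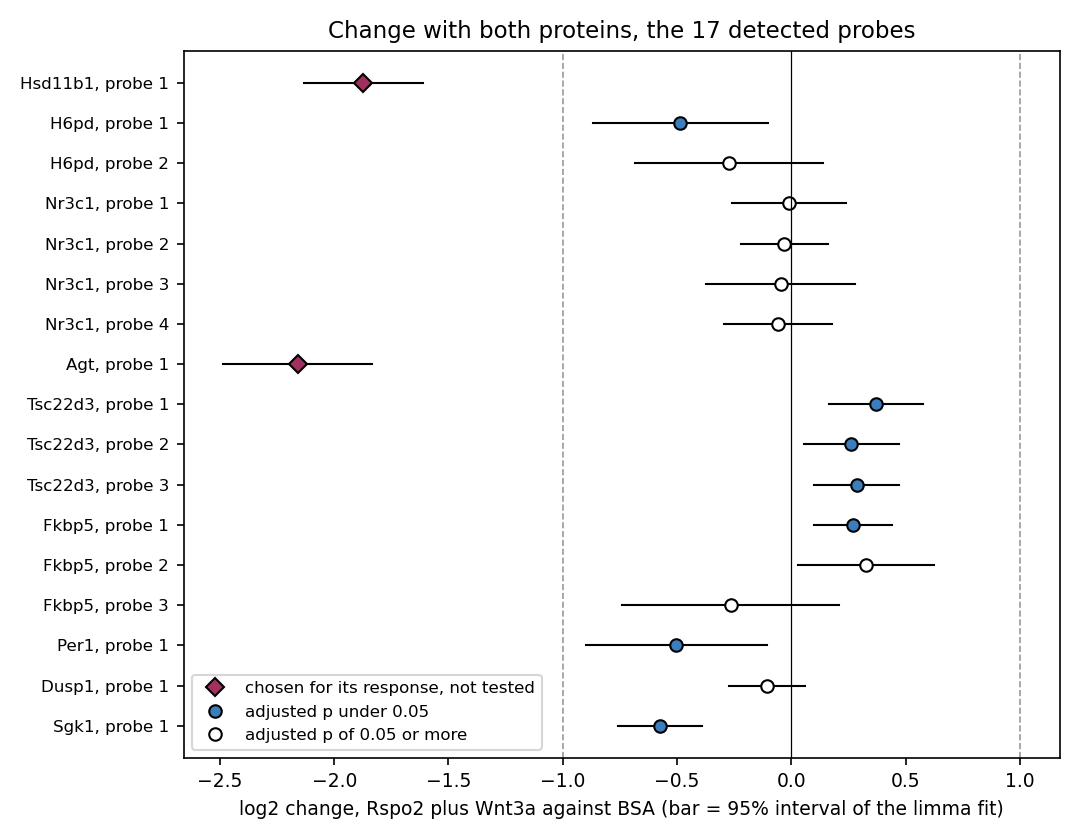
Log2 change with Rspo2 plus Wnt3a against BSA for the 17 detected probes (points, limma estimate; bars, 95% interval; dashed lines, 2-fold; diamonds, genes chosen for their response and not tested; filled circles, adjusted p under 0.05). Hsd11b1 at -1.87 and Agt at -2.16 lie beyond the 2-fold line and all 15 probes of the other 7 genes lie inside it, on both sides of 0, with the 4 Nr3c1 probes between -0.06 and -0.01.

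Likeness across arrays was measured by Pearson's r of the scaled levels over the 12 arrays, among the 18719 probes compared. Because the arrays fall into 4 groups, r mostly reflects the group means, and it is given as a description with no p. Hsd11b1 and Agt were both chosen by a large interaction, of the same sign, so their likeness to each other follows in part from that choice. The probes most like Hsd11b1 were those of Agt (r = 0.987), Gpnmb (0.985), Dpp7 (0.984), Irx2 (0.983) and Tle6 (0.983), and those most like Agt were Gpnmb (0.993), Dpp7 (0.989), C1qtnf5 (0.989), Tcim (0.987) and Hsd11b1 (0.987). Gpnmb, a glycoprotein of lysosomes and melanosomes, was 0.31 above BSA with Rspo2 and 1.28 below it with both (log2 change -1.28). Of the other members Sgk1 came closest to Hsd11b1 (r = 0.946, the 109th of the 18719), followed by Dusp1 (0.802), Per1 (0.779), H6pd (0.620), Nr3c1 (0.202), Tsc22d3 (-0.321) and Fkbp5 (-0.848).

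Around the members, in the wider set of steroid-handling enzymes and receptor partners, the 1 gene called with both proteins had its group means in the order of Hsd11b1. Of 30 listed genes 24 were detected. For both against BSA 0 were called higher and 1 lower, 4.17% of those detected beside 5.08% of all probes, so the count is near what the array gives. The gene called was Akr1c14, an aldo-keto reductase that inactivates steroids by reducing the keto group of their A ring. Its group means were -1.30 ± 0.09 for BSA, -1.05 ± 0.09 for Rspo2, -1.63 ± 0.07 for Wnt3a and -2.97 ± 0.13 for both (SD, n = 3), again with Rspo2 highest. The rise with Rspo2 alone, 0.26, did not pass the threshold (limma adjusted p = 0.0714). With slide as a term that rise was 0.17 (limma adjusted p = 0.506). The combination was 1.66 below BSA (log2 change -1.66, SE 0.09, limma adjusted p = 6.13e-07), and the interaction was -1.60 (limma adjusted p = 0.000136). Fitted with a slide term it was -1.48 (limma adjusted p = 0.013).

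Of the enzymes that oppose or precede Hsd11b1, Hsd11b2, which turns the active hormone back into its keto form, was above background on 0 arrays, as were Cyp11a1 and Cyp21a1 of steroid synthesis and Serpina6, the corticosteroid-binding globulin of plasma. Of the same synthesis pathway Cyp17a1 was above background on 12 arrays and Star, which carries cholesterol into mitochondria, on 9, and neither was called (-0.16 and 0.16 for both against BSA). G6pdx, the cytosolic counterpart of H6pd, differed by 0.04 between both and BSA, and Slc37a4, which carries the substrate of H6pd into the endoplasmic reticulum, by -0.19, neither called. Of the chaperones of the receptor, Stip1 and Ptges3 were above BSA with both proteins by 0.33 and 0.27 (limma adjusted p = 0.0103 and 0.0245), less than 2-fold, and the coactivator Ncoa1 was 0.45 below it (log2 change -0.45, limma adjusted p = 0.000609). A slide term brought the adjusted p-values of these 3 to 0.585, 0.799 and 0.188.

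The rest of the renin-angiotensin system, to which Agt belongs, was largely below background. Of 20 genes of the renin-angiotensin system 9 were detected and 0 were called in any of the 6 comparisons. Over all probes the share called was 0.721% to 5.08%, so 0 of 9 lies near what the whole array gives. Renin (Ren1 and Ren2), which cuts angiotensinogen, was above background on 0 arrays, as were Agtr1b, Agtr2 and Mas1, and the receptor gene Agtr1a was above it on 1. Agtrap, a protein that binds the angiotensin receptor, and Lnpep, an aminopeptidase of angiotensin, were below BSA with both proteins at -0.29 and -0.36 (limma adjusted p = 0.0101 and 0.00377), less than 2-fold, with adjusted p-values of 0.672 and 0.457 when slide was a term.

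Among 40 other glucocorticoid targets, of which 31 were detected, most of those called with both proteins were lower. In that comparison 1 was called higher and 7 lower, 25.8% of the detected beside 5.08% of all probes, and the median change was -0.29 beside 0.04. Over the whole array the study also reported more affected genes down-regulated than up-regulated, counted over all its treatments at an unadjusted p. The direction of the calls alone therefore does not set these targets apart. Some of the 31 counted as detected only through the BSA arrays, where they were high, and could only be called lower. Among the 25 above background on all 12 arrays, 1 was called higher and 3 lower. The 7 were Lcn2 and Saa3, acute phase proteins (-7.31 and -3.37), Klf15, a metabolic transcription factor, Angptl4, an inhibitor of lipoprotein lipase (-1.62), Lpin1, a phosphatidate phosphatase (-1.19), Cebpd, a C/EBP transcription factor (-1.08), and Hif3a (-1.03). Klf15 was above background on the BSA arrays only and was at least 2.53-fold lower with both (limma adjusted p = 0.000152). Saa3 was above background on 4 arrays and Angptl4 on 5, so that their values with both proteins rest on dim signals. Lcn2 was above it on 10, and with normexp its change with both was -5.27. Edn1, the vasoconstrictor endothelin, was called higher (2.08, limma adjusted p = 1.84e-07). A fit with slide gave adjusted p-values for Klf15, Angptl4 and Hif3a of 0.312, 0.0694 and 0.331.

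Lcn2, Saa3, Klf15, Angptl4 and Edn1 are among the genes that the study drew attention to on these samples, so their part in that count is not independent evidence. After Rspo2 alone, 0 were called higher and 5 lower (Lcn2, Saa3, Klf15, Angptl4 and Hif3a; 16.1% of those detected, 0.721% of all probes), whereas Hsd11b1 and Agt were above BSA. Wnt3a alone gave 1 higher and 5 lower, 19.4% of those detected beside 2.52% of all. The count of 5 after Rspo2 fell to 2 or 3 without BSA replicate 1, 2 or 3 or without Rspo2 replicate 2 or 3, and with slide as a term it was 2, as was the count of 6 after Wnt3a. Of the 25 genes above background on all arrays, 1 was called after Rspo2 alone, Hif3a. The immediate targets Nfkbia and Cebpb were below BSA with both proteins by less than 2-fold (-0.95 and -0.86, limma adjusted p = 0.000188 and 0.000412), and Zfp36 was above it (0.67, limma adjusted p = 0.00165), with adjusted p-values of 0.0565, 0.0662 and 0.27 when slide was a term.

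Paralogs of the members and the clock genes that share a loop with Per1 were mostly below the threshold. Of 13 detected paralogs, Dusp4, a nuclear MAP kinase phosphatase, was called higher with both proteins (1.49) and Dusp16 lower (-1.03), 15.4% of those detected beside 5.08% of all probes. The count of 2 was 1 with slide as a term or without BSA replicate 1 and 0 with normexp, and Dusp1 itself was not called. Of 14 detected clock genes 1 was called with both, 7.14% of those detected beside 5.08% of all probes. It was Bhlhe40, a repressor in that loop, which was higher (1.61, limma adjusted p = 1.43e-06). Rora lay below BSA by less than 2-fold (-0.96, limma adjusted p = 3.82e-05).

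**Figure D4:**
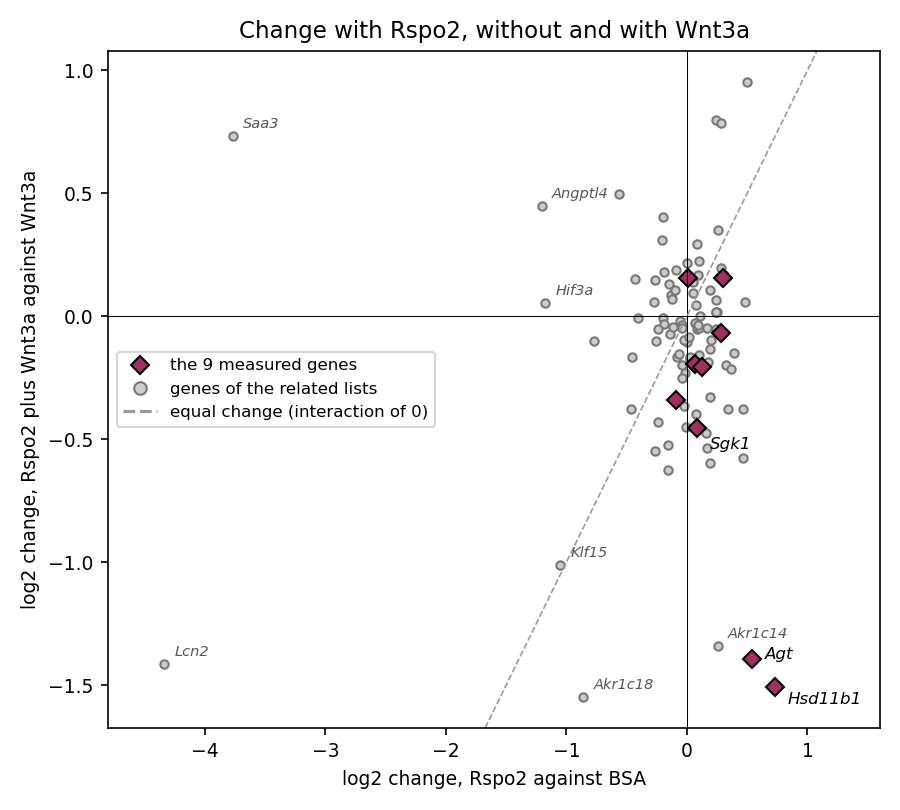
Log2 change with Rspo2 in the absence of Wnt3a (horizontal axis, Rspo2 against BSA) and in its presence (vertical axis, Rspo2 plus Wnt3a against Wnt3a), for the 9 measured genes (diamonds) and the 89 detected genes of the related lists (grey points); the dashed line marks equal changes. Hsd11b1 (0.73 and -1.51), Agt (0.54 and -1.39) and Akr1c14 (0.26 and -1.34) lie together at the lower right, above 0 without Wnt3a and below it with Wnt3a, away from the other 7 measured genes near the centre. Hsd11b1 and Agt were chosen by their interaction, which is the vertical distance from the dashed line, so their place follows from that choice. The Akr1c14 value without Wnt3a had a limma adjusted p of 0.0714.

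Markers of cell types were examined because Hsd11b1 and Agt are known as genes of liver and fat. Of 5 hepatocyte markers Alb, Ttr and Apoa1 were above background on 0 arrays, Fgb on 2 and Tat, the aminotransferase of tyrosine, on all 12. Of 8 adipocyte markers Lep, Plin1, Cfd and Cidec were above background on 0 arrays and 2, Fabp4 and Pparg, on all 12. The summed adipocyte level, in units of the 75th percentile, had Fabp4 as its largest part. It was 0.62 to 0.73 on the BSA arrays, 0.79 to 0.99 after Rspo2, 0.60 to 0.71 after Wnt3a and 0.40 to 0.49 after both. Like Hsd11b1 it was highest after Rspo2 and lowest after both, but BSA and Wnt3a overlapped. Fabp4 had scaled means of -1.04, -0.63, -0.97 and -1.85 in that order of groups. Pparg hardly differed, with means of -3.30, -3.39, -3.36 and -3.40. The part of these genes in the result was not tested. Of 6 macrophage and leukocyte markers 2 were above background on all arrays, and their sum, mainly Cd14, was 5.83 to 6.79, 6.81 to 7.66, 5.19 to 5.78 and 3.42 to 3.97 in the same order of groups, while Ptprc and Adgre1 were each above background on 1 array. The epithelial label was matched only in part: of 9 epithelial markers 3, Krt14, Krt8 and Esr1, were above background on all 12 arrays. Prlr was above it on 11, Krt5 on 10, Krt18 on 3, Krt19 and Epcam on 2 each and Cdh1 on 0. By comparison 7 of 8 mesenchymal markers were above background on all 12. The sum of the epithelial list, 10.4 to 10.9 with BSA and 22.8 to 26.0 with both, was nearly all Krt14 (scaled means of 3.35 and 4.59), while Krt8 had means of -3.51 and -4.66, and such sums follow the brightest probe.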

How the data were processed

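RNA was labelled with 1 dye and hybridised to Agilent whole-genome mouse arrays of 44K format. The deposited scanner files, made by the authors with Agilent Feature Extraction 9.5.3.1, hold for every spot a mean intensity, a background and a background-subtracted processed intensity. The deposited value table holds the ratio of each signal to the 75th percentile of its array and was used as an alternative.

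From the scanner files, log2 of the processed intensity was taken, 1327 of 520548 values marked as uneven or outlying were dropped, spots of a probe were averaged, and the 75th percentile of each array was subtracted. Tested were the 22751 of 41174 probes that every array of some group (3 of 3) placed well above background and that had values on at least 2 arrays of every group. The 4 group means were fitted to 12 arrays in limma 3.58.1 (R 4.3.3), and 6 comparisons were adjusted by Benjamini-Hochberg over all tested probes. The interaction is the change with both less the sum of the changes with each. A call required an adjusted p under 0.05 and at least 2-fold. No other tool that models the arrays jointly was run; the methods' t-test (2 samples, unequal variance) was an alternative. The script was tested on simulated data.

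Genes are given by their brightest probe, with further probes numbered by falling brightness. Named were all members and, of each related list, up to 4 called genes per direction with the largest change with both proteins against BSA. List genes of a role that bears on a member were named too. For likeness the 5 probes, well above background on all 12 arrays, with the highest correlation were named. The remaining called list genes (such as Lpin1, Cebpd and Hif3a), those with an interaction and those passing on the adjusted p alone were named after their values were seen. The members and lists were chosen with earlier results of these data known. The 3 arrays of a group came from 3 monolayers of 1 cell line, and p-values measure the spread between those. With 3 arrays a group, the number of arrays limits the precision. Promoter windows were read from RefSeq (GRCm38.p6). Alternatives covered background correction, normalization, filters, slide, replicate block and leaving out each array.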

Additional observations from a re-analysis of the deposited data

Results flagged for a closer look

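In 15 of the 96 tested genes of the related lists and the members (15.6%, beside 8.9% of all probes), the change with Rspo2 differed between cells without and with Wnt3a, by the interaction term of the limma fit. Akr1c14 changed by 0.26 with Rspo2 alone and by -1.34 on top of Wnt3a, an interaction of -1.60 (limma adjusted p = 0.000136, and 0.013 with slide as a term). Lcn2, a secreted iron-scavenger protein, changed by -4.34 and -1.42, an interaction of 2.92 (limma adjusted p = 3.52e-05, and 0.00657 with slide as a term). It was above background on 10 of the 12 arrays, so some of its values rest on dim signals, and with normexp its interaction was 2.54. The 13 others had adjusted p-values over 0.05 with slide as a term.

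Among these, interactions below 0 were those of the metallothionein Mt1 (-1.04, limma adjusted p = 0.0234), Ddit4, an inhibitor of mTOR signalling (-0.84, limma adjusted p = 0.0453), the clock output factor Dbp (-0.72, limma adjusted p = 0.00884) and Dusp2 (-0.70, limma adjusted p = 0.0273). Smaller ones were those of Sgk1 (-0.54, limma adjusted p = 0.0237), the lysosomal protease Ctsd (-0.53, limma adjusted p = 0.0279), Lpin1 (-0.47, limma adjusted p = 0.0295) and the ubiquitin ligase subunit Fbxo32 (-0.45, limma adjusted p = 0.0318).

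Interactions above 0 were those of Bhlhe40 (0.55, limma adjusted p = 0.04), the kinase Sgk3 (0.60, limma adjusted p = 0.0458), the efflux pump Abcb1b (1.06, limma adjusted p = 0.0151), Angptl4 (1.65, limma adjusted p = 0.0323, above background on 5 arrays) and Saa3. The Saa3 value of 4.50 (limma adjusted p = 0.00435) is not exact, since the gene was not well above background after Rspo2 or Wnt3a alone and its changes there are bounds, such as at least 5.16-fold lower than BSA after Rspo2. With normexp it was 0.46 (limma adjusted p = 0.914). Angptl4 was likewise not well above background after Wnt3a alone.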

How the results depend on the processing

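Over 27 alternatives, 12 of them leaving out 1 array each, the changes of Hsd11b1 and Agt against BSA with both proteins kept their sign in all 27, and the interaction in all 25 that could give one. For Hsd11b1 they ranged from -2.01 to -1.53 and the interaction from -2.37 to -1.90, and for Agt from -2.33 to -1.53 and from -2.11 to -1.42. The 7 tested genes gave 0 calls under each alternative, and 0 to 0 with 1 array left out, except on the adjusted p without the 2-fold requirement, where they were 2 for Rspo2 against BSA, 5 for both against BSA, 1 for both against Wnt3a, 4 for both against Rspo2 and 1 for the interaction. The next counts are over 26 alternatives, among them the methods' t-test at its unadjusted p. A p under 0.05, adjusted in all but that 1, was kept by Sgk1 in 24 for both against BSA. Tsc22d3 kept it there in 23, Fkbp5 in 17, H6pd in 12 and Per1 in 9. For Rspo2 against BSA Tsc22d3 kept it in 8 and Dusp1 in 12, and for both against Rspo2 Sgk1 kept it in 25, Dusp1 in 23, Per1 in 14 and Fkbp5 in 9. Sgk1 kept it in 21 for both against Wnt3a and in 16 of 24 for the interaction. With normexp the Angptl4 interaction turned to -0.51 (limma adjusted p = 0.914), and the cause was not tested.

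The calls over all probes for Rspo2, Wnt3a and both against BSA were 164, 573 and 1155, and they were 3, 35 and 330 with normexp and 65, 146 and 500 with slide as a term. For the interaction 438 became 3 and 151. Leaving out 1 array gave 90 (without Rspo2 replicate 3) to 224 for Rspo2, with 91 without BSA replicate 1, 480 to 683 for Wnt3a and 1074 to 1212 for both. For the interaction it gave 272 to 730, with 730 without Rspo2 replicate 1, and it was lower by over 1.5 times without Rspo2 replicate 2 or 3, Wnt3a replicate 2 or combination replicate 2 or 3. For both against Wnt3a 170 became 329 without Wnt3a replicate 3. The methods' t-test gave 136, 473 and 1041 at its unadjusted threshold and 2, 165 and 692 after Benjamini-Hochberg. Same-numbered replicates did not deviate together (correlations of -0.41 to 0.27, 4 of 18 over 0.1, and 3 of 12 arrays closest to their own number). On the adjusted p alone, a replicate block left Rspo2 against BSA at 0.101 for Tsc22d3 and 0.0757 for Dusp1. The block gave 0 calls among the 7 tested genes in each comparison and 120, 571 and 1149 over all probes.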
